A study of Anas platyrhynchos with 6 samples.

Results

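The circles described are the exonic circular RNAs of duck embryonic breast muscle that join 2 or more exons and begin at exon 2 of their host gene. They were taken from the deposited table by its own annotation, as exonic circles (circRNAs) with 2 or more exons whose lowest listed exon number is 2, and no read count entered that choice. There were 2239 of them among 16631 circular RNAs (13.5%), and among 9553 multi-exon circles with exon numbers (23.4%). The breast muscle (pectoralis) came from female embryos of the Shan Ma duck (Anas platyrhynchos), sexed by PCR of the gene CHD1. The stages compared were embryonic day 19 (E19), by which the labels describe the myoblasts as differentiated, and embryonic day 13 (E13), when they are not. RNA was depleted of ribosomal RNA and treated with RNase R, which digests linear RNA, and the files hold the number of reads across each back-splice junction. No agent or allele was used, each stage had 3 libraries, and the comparison asks which circles change as muscle fibres form.

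Circular RNAs arise when the spliceosome joins the 5′ splice site at the end of an exon to the 3′ splice site at the start of an exon upstream. The first exon of a gene has no 3′ splice site, so exon 2 is the first one that can serve as the acceptor of this back-splice. In vertebrates, long introns beside the circularised exons are a known feature. In skeletal muscle, many circles are known to change in level as myoblasts differentiate.

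More circles began at exon 2 than at any other exon. Of the multi-exon circles with exon numbers, 544 held exon 1, 2239 began at exon 2, 1188 at exon 3, 919 at exon 4 and 655 at exon 5, and the number fell further with each exon up to exon 12. The host genes fell as well, with 1472 at exon 2, 880 at exon 3, 665 at exon 4 and 500 at exon 5. How many transcripts hold each exon was not counted, so these numbers give no rate of use per exon. The circles from exon 2 took 42.5% of the reads of these multi-exon circles, and 34.0% once the most abundant circle of the series, which is one of them, was left out. Their mean was then 25.3 reads over the 6 libraries, against 18.3 for circles that held exon 1, 20.03 for those from exon 3 and 16.7 for those from exon 4. Exon numbers are those of the transcript the table lists for each circle. The circles of exon 1 are therefore circles that hold the listed first exon of such a transcript, and the table does not say which first exon the muscle used. In the same way, a circle from exon 2 of its listed transcript can begin at a later exon of another transcript of the gene.

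**Figure D1:**
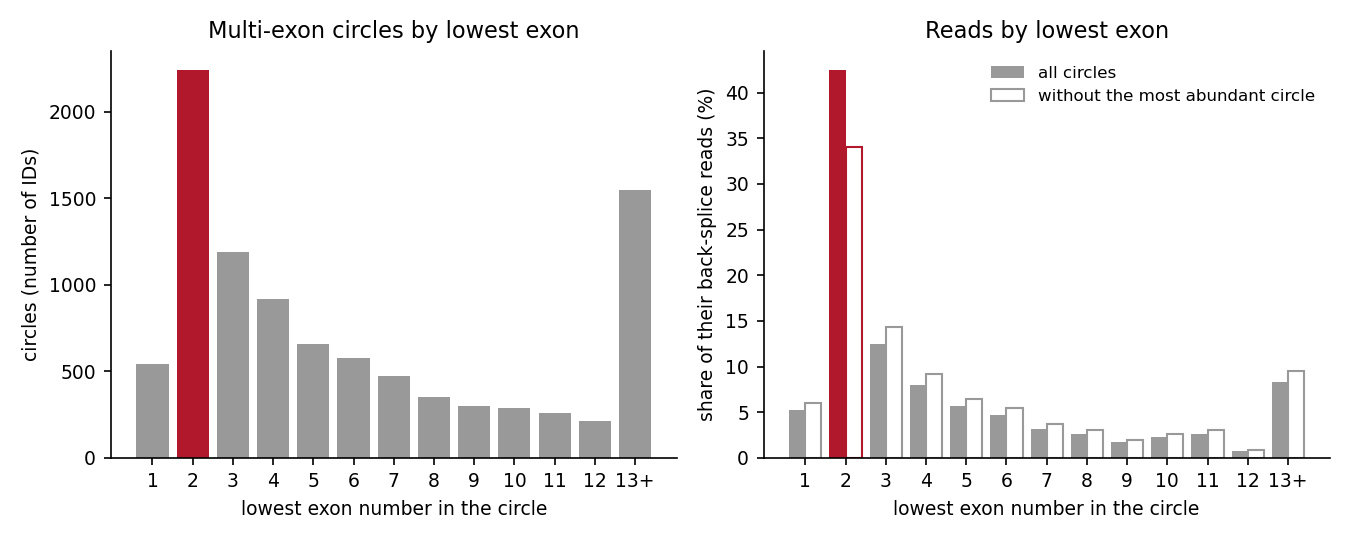
Left, the number of multi-exon circles by their lowest exon number, with the 2239 circles from exon 2 in red and all starts from exon 13 on in the last bar. Right, the share of the reads of these circles in percent, over all circles (filled) and without the most abundant circle (open). Exon 2 has the tallest bar in both, at 42.5% of reads with that circle and 34.0% without it.

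The circles from exon 2 came from 1472 host genes and 1533 transcripts on 28 chromosomes, with 1019 on the plus and 1220 on the minus strand. Of the hosts, 183 are named by an Ensembl ID alone, and these gave 253 circles. The circles shared 1508 different acceptors, since many end at different exons but begin at the same base. Most were scarce. The median was 3 reads over the 6 libraries, 524 circles (23.4%) rested on 1 read, and 1280 (57.2%) were seen in 1 library. At the other end 561 (25.1%) had at least 10 reads, 107 (4.78%) had at least 100, and 8.58% were seen in all 6 libraries. Among the 6770 circles that began at exon 3 or later, here called internal circles, the median was also 3 reads, 18.1% had at least 10 reads, 2.50% had at least 100 and 5.08% were seen in all 6 libraries.

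That circles from exon 2 carried more reads on average held in every library. Within each library, the mean reads per detected circle were divided by those of the internal circles of the same library, and the ratio was 2.02, 2.62 and 1.99 at E19 and 1.82, 1.91 and 2.08 at E13. On the log2 scale the mean difference was 1.04 (SD 0.18, n = 6 libraries), and all 6 pointed the same way (exact sign-flip permutation test, two-sided p = 0.031, which is the smallest 6 libraries can give). Without the most abundant circle the ratio was 1.30, 1.46 and 1.38 at E19 and 1.47, 1.57 and 1.64 at E13, with the same p of 0.031. The difference in mean reads therefore remained at about 1.47-fold when that circle was set aside. The 6 libraries draw on the same set of circles, so this p measures the spread between libraries and not between circles. It cannot decide whether a typical circle from exon 2 has more reads, and the median was 3 reads in both groups.

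Circles from exon 2 were mostly short in exons. The median was 4 exons, with a maximum of 26. Circles of exons 2 to 3 made up 615 (27.5%), those of exons 2 to 4 made up 483 (21.6%) and those of exons 2 to 5 made up 353 (15.8%). Internal circles had a median of 3 exons and a similar make-up, with 27.0% of 2 exons, 23.2% of 3 and 16.6% of 4. Circles whose last exon was between 3 and 7 were 84.0% of all circles from exon 2 and carried 96.9% of their reads. The 359 circles that ended at exon 8 or later carried 3.05% of the reads.

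Circles with a late last exon were seldom abundant. At least 100 reads were reached by 33 of those that ended at exon 3, 33 at exon 4, 22 at exon 5, 8 at exon 6 and 7 at exon 7, against 2 at exon 8. The median was 4 reads at exons 3, 4, 5 and 8, 3 reads at exons 6 and 7, and 2 reads at exon 9. Over all circles that ended at exon 8 or later it was 2 reads, and 14.5% had at least 10 reads. For last exons 3 to 7 these values were 4 reads and 27.1%, so late-ending circles had both a lower median and fewer abundant members. Without the most abundant circle, the mean was 28.5 reads for circles that ended at exon 3, 34.0 at exon 4, 29.4 at exon 5, 22.9 at exon 6 and 23.0 at exon 7, and it was 9.66 at exon 8 and 6.62 at exon 9. Of the circles that ended at exon 8 or later, 4 had at least 100 reads. They came from the Ensembl genes ENSAPLG00000014048 and ENSAPLG00000004785, from SOS1, which encodes an exchange factor that activates Ras, and from ANTXR1, which encodes a cell surface receptor for collagen and for anthrax toxin. These are values across circles within the same 6 libraries, and circles are not replicates.

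**Figure D2:**
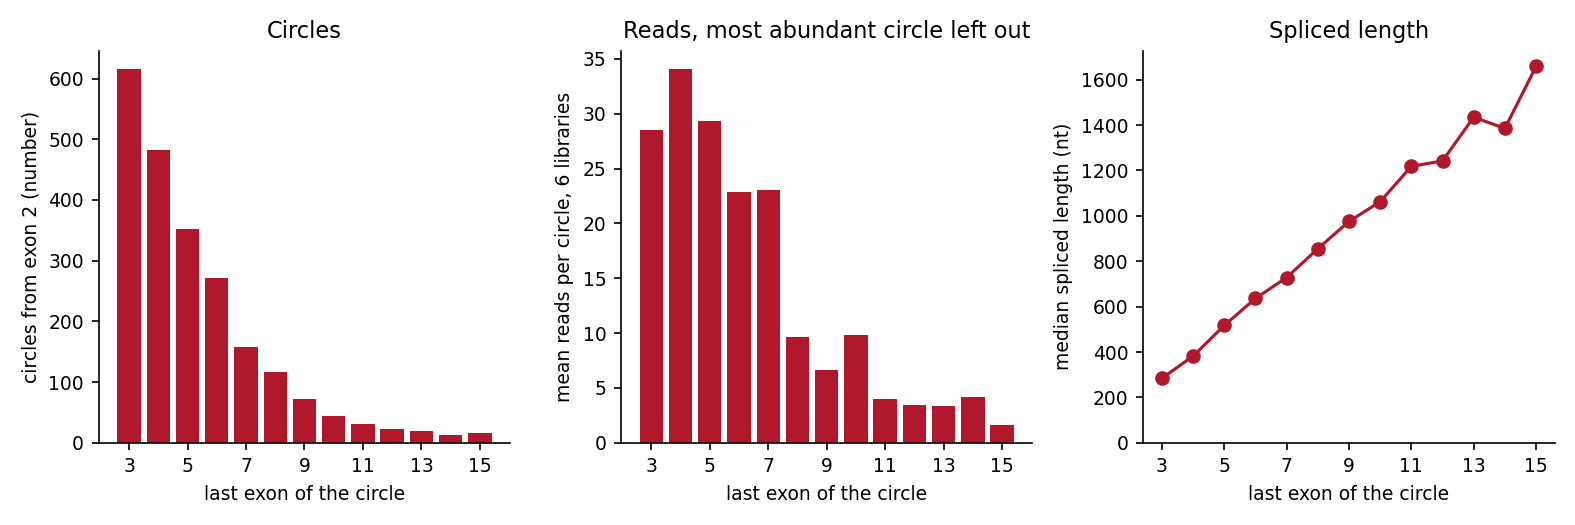
Circles from exon 2 by their last exon, up to exon 15: their number (left), the mean reads per circle over the 6 libraries without the most abundant circle (middle), and the median spliced length in nucleotides (right). The number falls at each step from 615 at exon 3 to 45 at exon 10, and the mean reads fall between exon 7 and exon 8.

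The genomic span of the circles had a median of 8781 bases, with quartiles of 3767 and 18872, against 6704 for internal circles and 11916 for those that held exon 1. Spliced length, the sum of the exons, had a median of 489 nt with quartiles of 325 and 752, against 454 nt for internal circles. It was 284 nt for circles of exons 2 to 3 and 728 nt for those of exons 2 to 7. The length of the intron before the circle is given in the files only for junctions that also stand under a second ID. In these the intron upstream of exon 2 had a median of 11448 bases (n = 399), with an upper quartile of 26498, and the upstream intron of internal circles one of 9038 (n = 1072), with an upper quartile of 17981. The downstream introns were nearly alike in median, at 8972 and 8725 bases. Here n counts circles, and circles that share an acceptor repeat the same upstream intron. The value of 11448 is also that of ENSAPLG00000008538, which enters with 6 circles. A difference in intron length between the groups was not tested.

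The extremes were rare molecules. The circle with the most exons and the highest last exon came from NF1, the Ras inhibitor neurofibromin, and joined exons 2 to 27 over 3645 nt, with 1 read at E13 in replicate 2. Next was RALGAPA2, a subunit of a GTPase activator for Ral, with exons 2 to 23 over 3031 nt and 1 read in E19 replicate 2. The longest spans were 401124 bases in NPAS3, a transcription factor of the nervous system (exons 2 to 8, 5 reads, all in E19 replicate 2), and 379887 bases in TENM2, a teneurin adhesion protein (exons 2 to 6, 3 reads in E19 replicate 2 and 1 in E13 replicate 1). The shortest span was 236 bases, in ENSAPLG00000005844, with 1 read. In all, 43 circles from exon 2 spanned more than 100 kb, although the study names 100 kb as its limit.

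The table holds many junctions under 2 IDs, an exon-numbered listing and a second listing with the coordinates of its flanking introns. Of the circles from exon 2, 428 (19.1%) have such a second listing. The counts of the listings are mostly close, but not always. For 37 circles the exon-numbered listing has 0 reads in a library in which the second listing has at least 10. These are 52 of 2568 library values (2.02%). Values below are those of the exon-numbered listing unless the second is named.

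Summed over all IDs, the libraries held 72245, 88916 and 60046 back-splice reads at E19 and 71406, 43849 and 57079 at E13. A junction with 2 listings enters these sums under both IDs. Of these, 14198, 19783 and 11781 at E19 and 14506, 9105 and 11610 at E13 lay in circles from exon 2, of which 828, 883 and 728 were detected at E19 and 836, 713 and 730 at E13. Their share of all reads was 20.5 ± 1.51% at E19 and 20.5 ± 0.253% at E13 (SD, n = 3 each), a difference that was within the spread (exact permutation test, two-sided p = 1). Their share of the detected circular RNAs was 14.1 ± 0.308% at E19 and 14.9 ± 0.487% at E13 (n = 3 each, exact permutation p = 0.2). With each junction counted once, the share of reads was 27.1 ± 2.23% at E19 and 26.1 ± 0.276% at E13 (exact permutation p = 0.9). The share of detected circles was then 16.5 ± 0.490% at E19 and 17.6 ± 0.485% at E13 (exact permutation p = 0.2). Because 3 libraries against 3 cannot give a p below 0.1, the tests of single values can only describe such differences.

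The share of reads was even only with the most abundant circle included. The circle of exons 2 to 3 of ENSAPLG00000008538 took 35.8, 44.2 and 30.4% of the reads of circles from exon 2 at E19, against 19.4, 18.2 and 21.5% at E13. With this junction left out of the members and of the total, circles from exon 2 took 14.7, 15.5 and 15.6% of all reads at E19, against 17.8, 18.4 and 17.5% at E13. The stages did not overlap, and the difference of means was -2.64 percentage points (exact permutation p = 0.1, the smallest possible, n = 3 each). The share of internal circles, measured in the same way, was 29.3 ± 0.478% at E19 and 28.7 ± 0.657% at E13 (n = 3 each, exact permutation p = 0.3). The ratio of reads per circle over internal circles, without that circle, was 1.38 ± 0.0828 at E19, with 1.46 as its highest value, and 1.56 ± 0.0845 with 1.47 as its lowest value at E13 (n = 3 each, exact permutation p = 0.1).

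**Figure D3:**
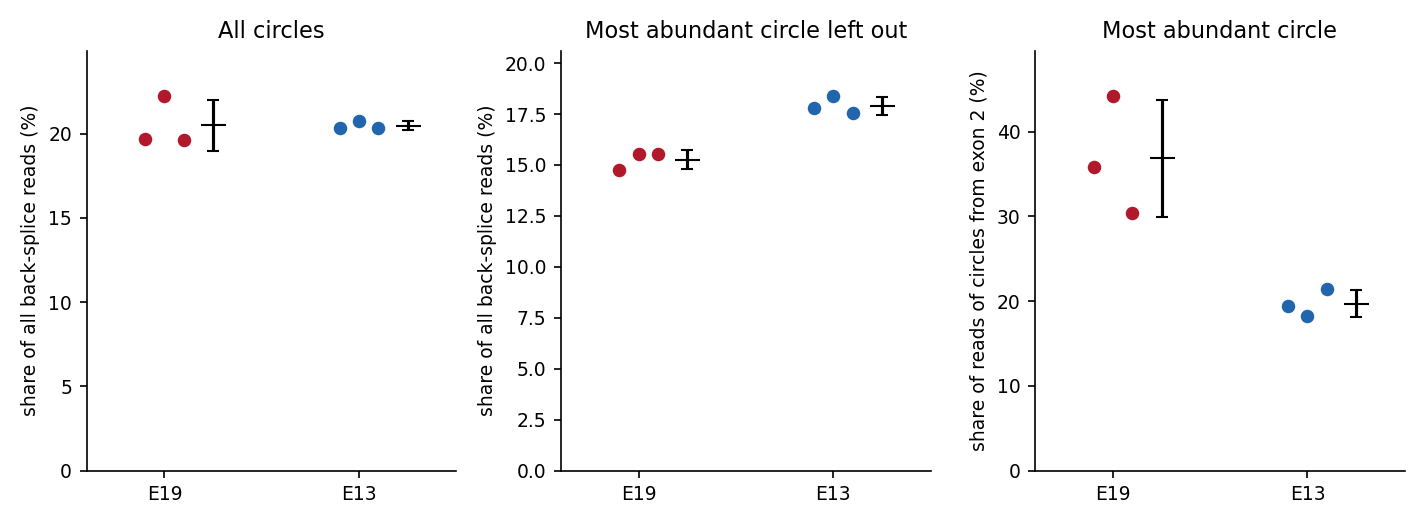
Shares in percent in each library (points) with the mean and SD beside them, E19 in red and E13 in blue. Circles from exon 2 took the same mean share of reads at both stages (left), a lower one at E19 without the most abundant circle (middle, 14.7 to 15.6% at E19 and 17.5 to 18.4% at E13), and that circle took a larger part of their reads at E19 (right).

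The most abundant circle, circRNA1989, joins exons 2 and 3 of ENSAPLG00000008538 on chromosome 2, from 46125 to 49485 on the minus strand, into 259 nt. Its host has no symbol in the files, which annotate it to the SWI/SNF complex, a remodeller of nucleosomes. It had 5084, 8750 and 3587 reads at E19, against 2814, 1661 and 2492 at E13. The stages did not overlap, and the second listing was close, with 5285, 9080 and 3769 reads at E19 and 2879, 1726 and 2587 at E13. In SRPBM, the spliced reads scaled to mapped reads that the authors deposited, it averaged 1415 ± 677 at E19 and 569 ± 113 at E13 (SD, n = 3 each). The next circle, that of NRBP1, averaged 83.7 ± 17.2 at E19 and 79.5 ± 20.5 at E13. The gene gave 6 circles from exon 2, all with the same acceptor. That of exons 2 to 4 had 212, 296 and 130 reads at E19, against 81, 59 and 77 at E13, and a circle ending at exon 5 had 108, 104 and 83 reads at E19, against 97, 61 and 44 at E13. Together these circles from exon 2 made 99.7% of the gene's reads in exon-numbered circles, and the part of the lead circle among them was 94.6% at E19 and 94.2% at E13 (mean, n = 3 each).

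The next circles in abundance came from genes of diverse roles, and the stages overlapped in the first of them. NRBP1, a kinase-like adaptor protein, gave the second most abundant one (exons 2 to 6, 446 nt), with 374, 389 and 272 reads at E19, against 444, 256 and 274 at E13. MARK1, a kinase of microtubule-associated proteins, had 202, 258 and 264 reads at E19 in its circle of exons 2 to 3, against 184, 198 and 228 at E13. ETNK1, which phosphorylates ethanolamine for phospholipid synthesis, had 233, 213 and 225 reads at E19 for exons 2 to 7, against 246, 162 and 197 at E13. Their fitted log2 changes were 0.07 (SE 0.36), 0.21 (SE 0.37) and 0.13 (SE 0.37), none with an adjusted p under 0.99 by edgeR's quasi-likelihood test.

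Other abundant circles had fewer reads at E19 in every library but did not pass the test. INPP4B, a phosphatase of phosphoinositides, had 111, 197 and 184 reads at E19 for exons 2 to 3, against 311, 238 and 348 at E13. DISC1, a scaffold protein at centrosomes and microtubules, had 143, 108 and 149 reads at E19 for exons 2 to 3, against 225, 256 and 234 at E13. CACNA1C, the pore of the L-type calcium channel of heart and smooth muscle, had 125, 107 and 101 reads at E19 for exons 2 to 3, against 187, 177 and 242 at E13. In all 3 the stages did not overlap, and the fitted log2 changes were -0.89 (SE 0.38), -0.88 (SE 0.38) and -0.89 (SE 0.39), each with an adjusted p of 0.434 by edgeR.

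PKDCC, a secreted kinase of skeletal development, had 149, 174 and 159 reads at E19 for exons 2 to 5, against 323, 139 and 187 at E13. CDC42, a small GTPase that shapes the actin cytoskeleton, had 188, 199 and 128 reads at E19 for exons 2 to 4, against 169, 127 and 91 at E13. ZNF236, a zinc finger protein, had 31.1, 52.4 and 31.4 SRPBM at E19 for exons 2 to 3, against 32.1, 37.4 and 33.9 at E13. Each pair of stages overlapped.

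In EXOC2 single libraries stood apart, and in INPP5A the listings did. EXOC2, a subunit of the exocyst that tethers vesicles to the membrane, had 101, 319 and 92 reads at E19 for exons 2 to 4, against 114, 89 and 327 at E13, so that 1 library at each stage stood far above the other 2. INPP5A, a phosphatase of inositol phosphates, had 0, 398 and 0 reads at E19 for exons 2 to 4, against 300, 158 and 0 at E13. Its second listing had 260, 419 and 244 reads at E19, against 315, 162 and 180 at E13, so the junction was present in all 6 libraries and the zeros belong to the listing.

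Of the 561 circles from exon 2 with at least 10 reads, which were tested together with all 4202 circular RNAs of that depth, 9 (1.60%) passed an adjusted p of 0.05 in edgeR's quasi-likelihood test with mapped reads as library size. The share called over all circular RNAs tested was 1.29%, so the share among circles from exon 2 was near it. The 54 calls over all tested include these 9 and, for 7 of them, the second listing of the same junction. Of the 9, 5 were higher at E19 (0.891%, against 0.833% over all tested) and 4 were lower (0.713%, against 0.452%). At the study's thresholds (a log2 change of 1 or more in either direction, at an unadjusted p not above 0.05) there were 38 (6.77%), against 8.52% over all tested. These split into 20 higher (3.57%, against 5.76%) and 18 lower at E19 (3.21%, against 2.76%). With libraries scaled to their back-splice reads there were 44, of which 14 were higher (2.50%, against 3.59% over all tested) and 30 were lower (5.35%, against 4.36%). The stages did not overlap in SRPBM in 79 of the 561 (14.1%), against 14.0% over all tested.

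The median log2 change was 0.08 in circles from exon 2, 0.26 over all circular RNAs tested and 0.35 over the 1224 internal circles tested. Among those with at least 100 reads it was 0.01 in the 107 circles from exon 2 and 0.15 in all 612. Library scaling shifts all of these together. With TMM factors the medians were -0.06 and 0.14, and with libraries scaled to their back-splice reads they were -0.26 and -0.07, each for circles from exon 2 and for all tested. The median of circles from exon 2 was the lower of both under each of these scalings.

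**Figure D4:**
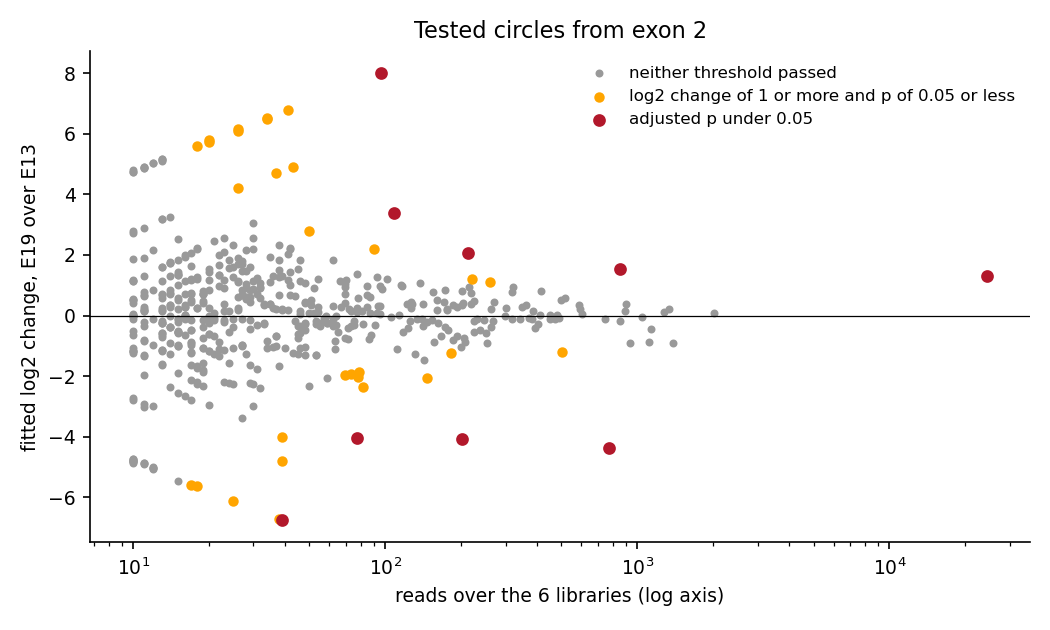
Fitted log2 change of E19 over E13 (vertical) against reads over the 6 libraries (horizontal, log axis) for the 561 tested circles from exon 2. Those with an adjusted p under 0.05 are in dark red and those past the study's thresholds alone in orange. The values narrow around 0 as reads increase, and the dark red point at the far right is the circle of exons 2 to 3 of ENSAPLG00000008538.

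FGFR2 gave the clearest difference between the stages. This gene encodes a receptor for fibroblast growth factors, a signalling family that keeps myoblasts proliferating. Its circle of exons 2 to 3 (circRNA1120, chromosome 6 from 31855952 to 31856981, minus strand, 340 nt) had 15, 6 and 15 reads at E19, against 204, 86 and 448 at E13. The circle of exons 2 to 5 (circRNA1118, 632 nt) had 3, 0 and 8 reads at E19, against 95, 41 and 54 at E13, and the one of exons 2 to 4 had 0 reads at E19 and 5, 0 and 4 at E13. No E19 library reached the lowest E13 library in the circles of exons 2 to 3 and 2 to 5. The log2 changes were -4.37 (SE 0.51, adjusted p = 2.73e-08 by edgeR) and -4.09 (SE 0.67). The second listings gave -4.43 and -4.59. All 3 circles share 1 acceptor at exon 2, and the lead circle had a mean part of 82.9% of their reads at E19 and 74.5% at E13 (n = 3 each, exact permutation p = 0.7).

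The test of FGFR2 exons 2 to 3 held without any 1 library, with adjusted p between 0.000218 and 0.0238 by edgeR. That of exons 2 to 5 was lost without E13 replicate 1 (edgeR adjusted p = 0.203) and without E19 replicate 2 (edgeR adjusted p = 0.0574).

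ENSAPLG00000026000 gave the strongest rise among the circles from exon 2 that passed the test. It has no symbol in the files, which place its product in the membrane of the sarcoplasmic reticulum, the calcium store of muscle. Its circle of exons 2 to 5 (circRNA10256, chromosome 3 from 63381742 to 63397960, plus strand, 413 nt) had 23, 52 and 21 reads at E19 and 0 in each library at E13. The second listing of this junction had 27, 56 and 24 reads at E19, against 2, 2 and 3 at E13, so the junction was not at 0 at E13. With the larger count of each library taken, the log2 change was 3.84 (SE 0.75, adjusted p = 0.000444 by edgeR). The call of the exon-numbered listing was lost without E19 replicate 2 (adjusted p = 0.174 by edgeR) and without E13 replicate 1 (adjusted p = 0.072).

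RSPO2 and ATRNL1 were lower at E19. R-spondin 2, encoded by RSPO2, is a secreted enhancer of Wnt signalling, and its circle of exons 2 to 4 (519 nt) had 4, 0 and 0 reads at E19, against 45, 3 and 25 at E13. The stages overlapped in reads, since E13 replicate 2 had fewer than E19 replicate 1. The log2 change was -4.05 (SE 1.07, adjusted p = 0.0401 by edgeR). ATRNL1, an attractin-like membrane protein, had 0 reads in each E19 library for exons 2 to 5 (532 nt), against 7, 16 and 16 at E13. With 3 reads put in for E19 as a floor, this circle was 13.3-fold lower at E19. Its adjusted p was 0.0489 by edgeR, just under the threshold. The second listing, with 0 reads in each E19 library and 5, 16 and 17 at E13, did not pass (adjusted p = 0.0588 by edgeR). With the larger count of each library taken, the junction passed (adjusted p = 0.0204 by edgeR).

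MTCL1, which crosslinks microtubules, was higher at E19, with 65, 74 and 33 reads for exons 2 to 3 (382 nt), against 16, 6 and 19 at E13. The stages did not overlap, and the log2 change was 2.05 (SE 0.55, adjusted p = 0.0428 by edgeR). The circles of ENSAPLG00000008538 described above were higher at E19 by 1.32 (SE 0.36, exons 2 to 3, adjusted p = 0.0441 by edgeR) and 1.54 (SE 0.41, exons 2 to 4) on the log2 scale. The circle that ended at exon 5 changed by 0.53 and did not pass. Of the circles in this and the preceding paragraph, that of RSPO2 stayed past the threshold without E19 replicate 1 (adjusted p = 0.0307 by edgeR), and none of the others did without any 1 library, each such fit testing fewer circles on 5 libraries. Their smallest adjusted p in such fits was 0.161 for ATRNL1, 0.0924 for MTCL1, 0.0967 for ENSAPLG00000008538 exons 2 to 3 and 0.059 for its exons 2 to 4.

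The call of LMO7 depended on which listing was read. LMO7 encodes a LIM domain protein that binds emerin and actin, and its circle of exons 2 to 4 (circRNA8664, 245 nt) had 11, 35 and 53 reads at E19, against 0, 0 and 9 at E13, with a log2 change of 3.37 (SE 0.87, adjusted p = 0.0342 by edgeR). The second listing of the same junction had 0 reads in each E19 library and 18, 11 and 0 at E13. Each library thus had its reads under 1 of the 2 IDs only. With the larger count of each library taken, the junction had 11, 35 and 53 reads at E19, against 18, 11 and 9 at E13. The log2 change was then 1.34 (SE 0.61) and did not pass (adjusted p = 0.433 by edgeR).

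With each junction counted once in this way, 9 of 603 circles from exon 2 passed (1.49%, against 1.16% over the 3608 circular RNAs tested), of which 8 are among those above. LMO7 was lost and a circle of GAS2 was gained. GAS2 encodes a protein that links actin and microtubules, and the study took another of its circles, made of exons 5 to 7, into functional tests, so it is named here after its values were seen. Its circle of exons 2 to 3 (circRNA1171, 285 nt) had 0 reads in each E19 library and 16, 18 and 4 at E13. With 3 reads put in for E19 as a floor, it was 12.9-fold lower at E19. The adjusted p by edgeR was 0.0638 in the table as deposited and 0.0321 with each junction counted once, and this circle has no second listing. The GAS2 circle of exons 2 to 7 had 0, 0 and 2 reads at E19, against 23, 9 and 5 at E13, with an adjusted p of 0.349 by edgeR.

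**Figure D5:**
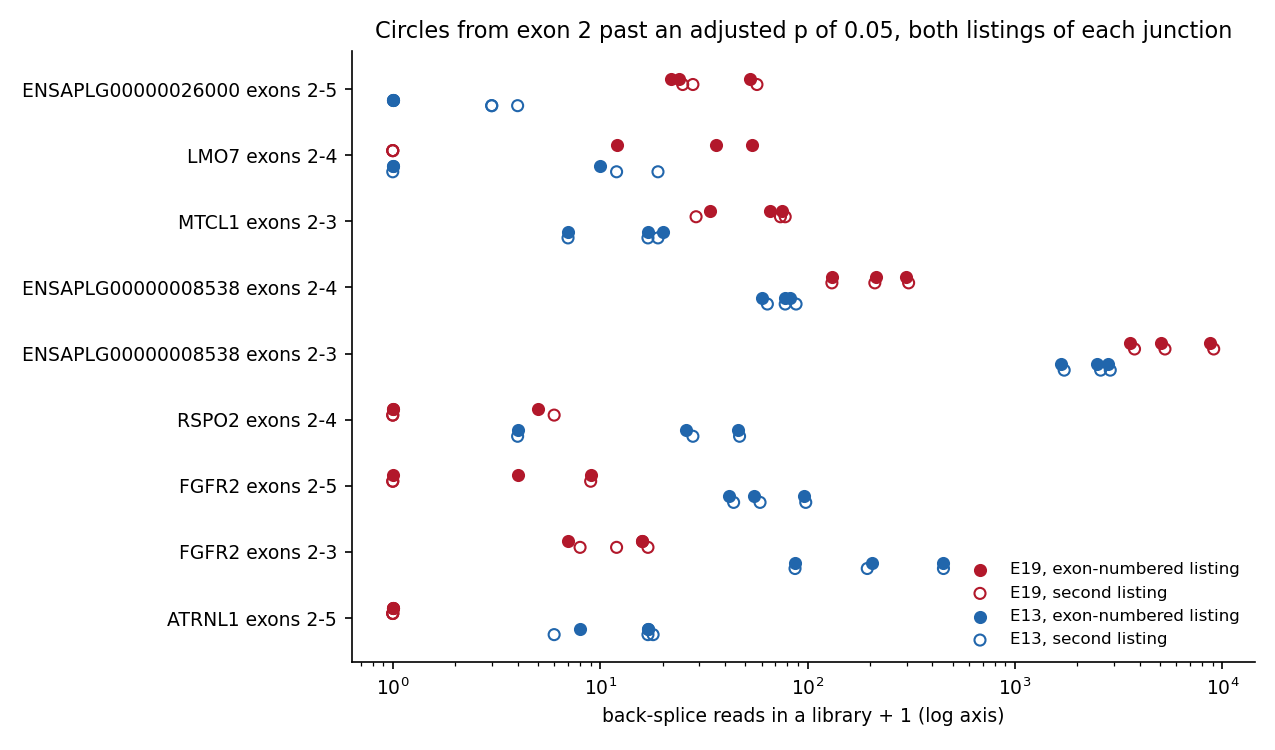
Back-splice reads plus 1 in each library (log axis) for the 9 circles from exon 2 with an adjusted p under 0.05, E19 in red above E13 in blue. Filled points are the exon-numbered listing and open points the second listing of the same junction. Both listings lie close together in most of the circles, while in LMO7 the open points are 0 at E19 and up to 18 at E13. In ENSAPLG00000026000 the filled points are 0 at E13 and the open ones 2 to 3. For FGFR2 exons 2 to 5 the listings have 3 and 0 reads in E19 replicate 1.

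Many hosts gave several circles from exon 2. Of the 1472 hosts, 1003 gave 1, 469 gave at least 2 and 74 at least 4. INPP4B gave the most, with 7, followed by several with 6, of which ENSAPLG00000008538, FAM126B, NDFIP2, NPAS3 and BAZ2B had the most reads. The 7 of INPP4B begin at 3 different acceptors and the 6 of BAZ2B at 3, so these counts do not refer to 1 exon 2. FAM126B belongs to a complex that makes a membrane phosphoinositide. Its 6 circles share an acceptor, and 1 of them, exons 2 to 4, had 744 of their 765 reads, with 152, 94 and 114 at E19 and 158, 115 and 111 at E13. The other 5 had between 1 and 8 reads each. NDFIP2, an adaptor of ubiquitin ligases, had 2 circles listed as exons 2 to 4 that begin at different acceptors. The more abundant had 45, 84 and 138 reads at E19, against 49, 42 and 57 at E13, and the other 36, 48 and 18 reads at E19, against 46, 46 and 57 at E13. The more abundant of these 2 lies inside the NDFIP2 circle of exons 2 to 7 that begins at the other acceptor, and ends at the same base. By the numbering of that transcript it is an internal circle. In such hosts exon 2 is exon 2 of different transcripts. How many circles from exon 2 are internal in another transcript was not counted.

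In 582 of the 1472 hosts every exon-numbered circle began at exon 2 and had 2 or more exons. Most of these were scarce hosts, since this held in only 18 of the 228 with at least 100 reads in exon-numbered circles. In the other 890 of the 1472 hosts the circle with the most reads was one from exon 2 in 409 (46.0%), although in many of these hosts few reads decide. Among the 356 genes with at least 100 reads in exon-numbered circles, whether or not they host a circle from exon 2, it was one from exon 2 in 114 (32.0%). Of these genes 228 host a circle from exon 2, and in them such circles took a median of 43.0% of the reads, with at least 90% in 74 genes. Over all 356 genes the median was 3.26%.

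In 22 hosts at least 2 circles from exon 2 had 50 or more reads, and in 20 of them these circles shared 1 acceptor, so that they differ in where they end. In BAZ2B and NDFIP2 they did not, and in each 1 of them lies inside a circle that begins at the acceptor of the other. Among the 20, the circle that ended earliest was the most abundant in 11. In CCNY, a cyclin that acts at the plasma membrane, the circle of exons 2 to 7 led, with 52, 66 and 51 reads at E19 and 93, 53 and 77 at E13, ahead of exons 2 to 4, with 38, 43 and 11 at E19 and 64, 30 and 39 at E13. PCMT1, which repairs aged proteins, had 101, 92 and 117 reads at E19 for exons 2 to 5, against 109, 55 and 43 at E13. Its circle of exons 2 to 4 had 39, 90 and 55 reads at E19, against 78, 55 and 66 at E13. LRMDA, which is known from pigment cells, had 46, 56 and 50 reads at E19 for exons 2 to 4, against 187, 78 and 84 at E13. The stages did not overlap, but the log2 change of -1.20 (SE 0.43) did not pass (adjusted p = 0.243 by edgeR).

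The part of the lead circle differed between the stages without overlap in 3 of the 22 hosts, each with the exact permutation p of 0.1 (n = 3 each) that is the smallest possible. In ARHGEF3 the circle of exons 2 to 5 made 25.4, 47.2 and 40.8% of the reads of circles from exon 2 at E19, against 48.6, 56.9 and 59.1% at E13. The circle of exons 2 to 3 had 42, 39 and 32 reads at E19, against 50, 23 and 15 at E13. In MAP2K4, a kinase of the stress pathway to JNK and p38, 3 of the 6 circles begin at another acceptor and have at most 5 reads each. Here the circle of exons 2 to 6 made 40.5, 46.7 and 20% at E19, against 64.5, 47.6 and 50% at E13. In REPS1, a protein of endocytosis, the circle of exons 2 to 3 made 83.3, 82.6 and 92.7% at E19, against 81.8, 81.4 and 81.7% at E13. Adjusted over the 22 hosts none of these could pass a threshold of 0.05. A proportion of about 0.1 of hosts would reach such a p with no difference between the stages, and 3 of 22 is near that.

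Genes that mark muscle cells were looked up among the hosts, and their share was not compared with that of all host genes. Of 44 genes of skeletal muscle, 18 hosted an exon-numbered circle and 4 hosted circles from exon 2, which were 7 in number with 121 reads at E19 and 63 at E13. The only one tested was that of exons 2 to 3 of CACNA2D1, a subunit of the calcium channel that triggers contraction, with 35, 47 and 30 reads at E19, against 25, 18 and 18 at E13. The stages did not overlap, and the log2 change was 0.85 (SE 0.55, adjusted p = 0.541 by edgeR). The other circles came from MEF2A, FHOD3 and MYOM2, with at most 4 reads each. None of these 4 hosts is named by an Ensembl ID alone, and the circle of ENSAPLG00000026000 described above is not among the 7. Reads of a circle do not measure the mRNA of its host, and a change in bulk tissue cannot tell apart fewer cells of a type and less of the circle per cell.

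Marker genes of other cell types gave little. Circles from exon 2 of connective tissue genes had 1 read at E19 and 0 at E13, those of blood and immune genes 0 at E19 and 3 at E13, those of endothelium 4 at E19 and 0 at E13, and those of fat 6 at E19 and 10 at E13. Genes of nerve and Schwann cells had 16 to 47 reads per library at E19 and 17 to 29 at E13, most of them in ANK2, an adaptor of membrane proteins and the spectrin skeleton. Its circle of exons 2 to 4 had 15, 35 and 28 reads at E19, against 13, 12 and 13 at E13, with a log2 change of 1.00 (SE 0.65, adjusted p = 0.547 by edgeR). Of these lists, no circle had enough reads to be tested for connective tissue, blood and immune cells or endothelium, while 1 was tested for fat and 2 for nerve and Schwann cells, none of which passed.

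Among growth factor receptors and ligands, 12 of 34 genes hosted 23 circles from exon 2. They had 90 to 124 reads per library at E19 and 207 to 551 at E13, and of 12 tested, 2 passed, both lower at E19 and both of FGFR2. Over all circular RNAs tested 1.29% passed. Since the lists were chosen with earlier results of these data known, the calls in this and the following lists restate circles named above. They are no test of a list. The median log2 change of the 12 was 0.55, against 0.26 over all tested, with 7 above 0 and 5 below, so the lower sum of reads at E19 came with 2 circles of FGFR2 and not with the middle of the list. PDGFC, a ligand of platelet-derived growth factor receptors, had 2, 3 and 8 reads at E19 for exons 2 to 3, against 54, 7 and 8 at E13, with a log2 change of -2.37 (SE 0.88, adjusted p = 0.291 by edgeR). In the list of hedgehog and Wnt genes 4 of 22 hosted 6 circles from exon 2, and of 4 tested the circle of RSPO2 described above passed.

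Lists of broader function gave no further calls. For chromatin genes 14 of 70 hosted 26 circles from exon 2, 6 were tested and none passed. For RNA binding and splicing 15 of 52 hosted 23, 4 were tested and none passed. The circle of exons 2 to 3 of QKI, a regulator of splicing and of circle formation, had 21, 39 and 18 reads at E19, against 20, 11 and 8 at E13 (log2 change 0.99, SE 0.65, adjusted p = 0.573 by edgeR). That of exons 2 to 3 of RBFOX1, a splicing factor of muscle and neurons, had 0, 0 and 1 reads at E19, against 21, 6 and 11 at E13 (log2 change -4.81, SE 1.64, adjusted p = 0.185 by edgeR). Its second listing had 3, 0 and 2 reads at E19, against 21, 6 and 10 at E13. With the larger count of each library taken, the log2 change was -2.84 (SE 1.25, adjusted p = 0.433 by edgeR). For the ubiquitin system 19 of 55 genes hosted 33, 15 were tested and none passed, with the most reads in FBXW11, a subunit that selects targets of a ubiquitin ligase, at 45, 39 and 54 reads at E19, against 40, 24 and 16 at E13. For the cytoskeleton and adhesion 23 of 68 genes hosted 36, 13 were tested and 1 passed, that of LMO7 with the limit given above. Of 35 genes known to host circles in other animals 5 hosted 8 circles from exon 2, and of 3 tested the same LMO7 circle passed.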

How the data were processed

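The 6 libraries hold back-splice reads from 3 embryos per stage, prepared from rRNA-depleted RNA that RNase R had cleared of linear molecules. Per the labels and the study's methods, reads were trimmed with Cutadapt, mapped to the Ensembl duck genome with Bowtie 2 and TopHat 2, and back-splices were called with TopHat-Fusion, CIRCexplorer2 and CIRI. Neither their versions nor the name of the genome build is given in the sources used here. The counts, as the authors deposited them, give the reads across each back-splice in each library with no normalization. The deposited signal, SRPBM, was made by the authors by dividing each count by read length and by mapped plus candidate back-splice reads. Columns of the authors' own stage comparison (fold changes and p-values) were not used.

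Circles with at least 10 reads over the 6 libraries were tested with edgeR 4.0.16 (glmQLFit, glmQLFTest; R 4.3.3), with the study's mapped reads as library size and Benjamini-Hochberg adjustment over all 4202. The SE of a log2 change is its size over the square root of F. Single values were compared by exact permutation. Spliced length is the listed size less 1 base per exon, and starts are counted from 1. Folds against a stage with 0 reads take 3 reads over that stage as a floor, which covers counting error at that stage only. The count of the other stage is taken as exact, and the spread between libraries is not covered. The libraries had 43849 to 88916 back-splice reads. Alternatives changed scaling (TMM, back-splice reads, SRPBM), tool (DESeq2 1.42.0), filter, libraries, pairing, listing and table, and the fits were tested on simulated data. A fit that left the dominant circle out and counted each junction once was added after the data were seen. Nothing says more of the replicates than that they are separate embryos, so p-values measure the spread between these.

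Named circles are the 12 with the highest mean SRPBM, those past the test, the extremes of exon count, last exon and span, the 6 hosts with most circles, up to 4 with most reads per gene list, and hosts with at least 2 circles of 50 or more reads. The members, lists and rules were chosen with earlier results of these data known. Replicate numbers did not pair the libraries. No sequence is printed, because a genome of the files' build was not used here. An item that meets the naming rule is not reported here.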

Additional observations from a re-analysis of the deposited data

Results flagged for a closer look

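Reads per detected circle, of circles from exon 2 over internal circles, stood apart in 1 library. On the log2 scale the difference was 1.02, 1.39 and 0.99 at E19 and 0.86, 0.94 and 1.06 at E13, and the gap between E19 replicate 2 and the next library was 0.633 of the whole range of the 6 libraries. Chance alone gives such a gap in about 1 of 20 groups. The most abundant circle had 8750 reads in that library, and without that circle the library read 0.55, between 0.38 and 0.71 in the others, and no longer stood apart.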

How the results depend on the processing

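The count of circles from exon 2 past an adjusted p of 0.05 was 9 (5 higher and 4 lower at E19). That is 1.60% of those tested, against 1.29% of all circular RNAs tested. It was 5 with TMM factors (3 and 2; 0.891%, against 0.785%), 4 with back-splice reads as library size (2 and 2; 0.713%, against 0.476%), 18 with DESeq2 on its own size factors (6 and 12; 3.21%, against 2.21%), 6 with DESeq2 on mapped reads (3 higher; 1.07%, against 0.833%) and 2 among circles with at least 20 reads (1 and 1; 0.560%, against 0.159%). Without single libraries it was 1 to 4 (0 to 2 higher, 1 to 3 lower), where all circular RNAs gave 3 to 23. In these fits, with fewer circles and libraries, the shares were 0.2 to 0.797%, against 0.0812 to 0.626% over all tested. With the replicate number as a block it was 5 (2 higher; 0.891%, against 0.904%), although libraries of the same number did not deviate together, with correlations of -0.0602 to -0.0222. For all others the cause of the change was not tested. Counting each junction once gave 9 (1.49%, against 1.16%). The second table and the SRPBM library size gave 9 each (1.60%, against 1.28% and 1.29%). No filter gave 7 (0.313%, against 0.271%). Of the called circles, FGFR2 exons 2 to 3 passed in 16 of 16 alternatives, ENSAPLG00000026000 in 14, FGFR2 exons 2 to 5 in 13, ENSAPLG00000008538 in 8 (exons 2 to 3) and 7 (exons 2 to 4), RSPO2 in 7, LMO7 and ATRNL1 in 5 each and MTCL1 in 4.

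The difference in the share of reads, 0.03 percentage points, was -2.64 without the most abundant circle, -2.99 when each junction was also counted once, and -0.84 to 0.48 without single libraries. The excess of reads per circle over internal circles was 0.97 to 1.08 on the log2 scale without single libraries, where 5 libraries allow no p below 0.0625. Abundant circles near no change turned sign. NRBP1 had log2 changes of -0.053 with TMM factors, -0.26 with back-splice reads as library size, -0.10 with DESeq2 on its own size factors and -0.041 to 0.31 without single libraries. ZNF236 had -0.020, -0.25 and -0.066 under the same 3 scalings and -0.15 to 0.28 without single libraries. ETNK1 had -0.18 with back-splice reads and -0.034 with DESeq2 size factors, and MARK1 -0.13 with back-splice reads. EXOC2 ranged over -0.92 to 0.74 and INPP5A over -10.26 to 0.66 without single libraries, and INPP5A had 0.48 when each junction was counted once. Circles with under 10 reads were tested only in the fit with no filter.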
